A study of Mus musculus with 2 samples.

Results

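The goblet cell lectins and barrier secretions are 10 genes, Retnla, Retnlb, Retnlg, Itln1, Zg16, Lypd8, Dmbt1, Fcgbp, Clca1 and Agr2. Most of their products reach the mucus or the surface of the colon or help to build it. Retnla and Retnlg are known from other cells, named below. The 10 genes were taken by gene symbol from the main transcript clusters of a Mouse Gene 2.0 ST array. On it, a transcript cluster is the set of probes that stands for 1 gene or transcript. Each symbol had exactly 1 cluster, so 10 of 33793 main clusters and 10 of 30921 gene symbols are described. All 10 clusters lie on their gene in the mouse build GRCm38.p6, hold 13 to 25 probes and are annotated as free of cross-hybridization.

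The levels come from 2 arrays, 1 hybridized with mid colon RNA of C3 KO mice, which lack complement component 3, and 1 with mid colon RNA of WT mice. Both groups were untreated, 16 weeks old and of the FVB strain or on its background, and both were bred by crossing mice heterozygous for the C3 gene. The comparison was made because C3 deficiency in mice is accompanied by constipation. The sources used here do not say which part of C3 is deleted, nor whether an array holds RNA of 1 mouse or of several mice, and a single array per group gives no measure of how mice differ from one another. No test was therefore made. Levels are log2 values, a difference is C3 KO minus WT on the log2 scale, and "higher" and "lower" are used from 1.5-fold on, or 0.585 on the log2 scale, unless said otherwise.

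Goblet cells are the secretory cells of the colonic epithelium, and they release the gel-forming mucin Muc2 together with smaller proteins that shape the mucus and bind microbes. Lectins are proteins that recognize sugars, among them those on bacterial walls, and several act at the mucus surface to hold bacteria away from the epithelium. Resistin-like proteins are small cysteine-rich secreted proteins, and the one made by goblet cells is known as a product that type 2 cytokines and gut bacteria induce.

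Of the 10 genes, 3 were lower in the C3 KO array, Itln1 by 4.04-fold, Retnlb by 2.43-fold and Dmbt1 by 2.03-fold, and 1 was higher, Retnlg by 1.54-fold at a level close to background. The 3 lower genes are 30.0% of the 10, beside 3.82% of all main clusters, and higher clusters are 3.66% of them, with 7.48% called in either direction. All 3 lower genes also passed 2-fold, a size that 0.678% of all main clusters reached in that direction. The remaining 6 genes, Retnla, Zg16, Lypd8, Fcgbp, Clca1 and Agr2, lay within 1.5-fold. The C3 KO level was below the WT level for 7 of the 10, beside 48.4% of all main clusters, and the median difference was -0.23, beside 0.00 over all main clusters.

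**Figure D1:**
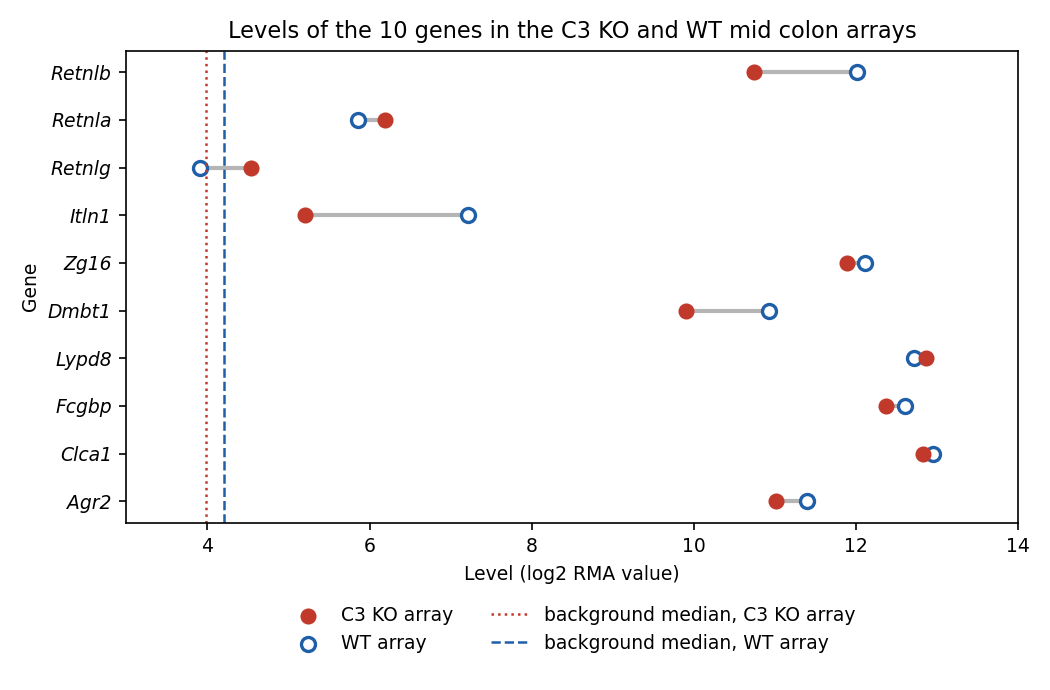
Levels of the 10 genes (x axis, log2 RMA value; 1 row per gene) in the C3 KO array (filled red) and the WT array (open blue), with 1 array per group and no error bars. The dotted and dashed lines are the background medians, 3.99 in the C3 KO array and 4.20 in the WT array; the wide gaps are those of Itln1, Retnlb and Dmbt1, and only Retnlg reaches a background line.

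Promoter sequences are shown for the gene with the largest difference and for the 2 resistin-like genes that were not lower, next to a neighbour that was. They are RefSeq windows of the GRCm38.p6 table, from 250 bases before to 50 bases after the annotated start, read 5′ to 3′ on the strand of the gene. The window of Itln1 is chr1:171535245-171535544 on the minus strand, that of Retnla is chr16:48842359-48842658 on the plus strand and that of Retnlg is chr16:48872358-48872657 on the plus strand. Capitals mark matches to TATAAA, the core of a TATA box, and to TTC and GAA with 4 bases between them, the arrangement that STAT6, the transcription factor of type 2 cytokines, prefers.
Itln1: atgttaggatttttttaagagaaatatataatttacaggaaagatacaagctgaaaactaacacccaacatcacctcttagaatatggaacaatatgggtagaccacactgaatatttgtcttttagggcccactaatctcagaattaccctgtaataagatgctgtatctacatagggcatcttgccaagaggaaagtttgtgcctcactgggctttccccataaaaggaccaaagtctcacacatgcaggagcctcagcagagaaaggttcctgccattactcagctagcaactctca
Retnla: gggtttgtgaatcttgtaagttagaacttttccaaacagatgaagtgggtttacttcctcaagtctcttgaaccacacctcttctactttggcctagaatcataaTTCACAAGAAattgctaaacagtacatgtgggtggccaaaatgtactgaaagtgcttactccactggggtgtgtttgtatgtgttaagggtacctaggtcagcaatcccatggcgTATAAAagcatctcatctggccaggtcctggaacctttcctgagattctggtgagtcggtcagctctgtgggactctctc
Retnlg: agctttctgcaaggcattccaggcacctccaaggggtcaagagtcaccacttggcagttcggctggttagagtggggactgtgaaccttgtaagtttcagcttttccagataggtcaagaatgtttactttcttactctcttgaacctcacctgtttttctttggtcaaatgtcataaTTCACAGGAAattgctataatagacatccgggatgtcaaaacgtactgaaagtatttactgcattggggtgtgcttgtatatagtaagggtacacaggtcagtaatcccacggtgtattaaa
Both strands were searched for TATAAA and for TTC and GAA with 4 or with 3 bases of any kind between them, and no match overlapped another. Retnla holds TATAAA, which 13.6% of 32851 RefSeq promoter windows hold, beginning 30 bases before the start. Its TTCACAAGAA begins 145 bases before the start, and Retnlg holds TTCACAGGAA 72 bases before its own, a spacing of 4 found in 6.95% of the windows. The spacing of 3, which 8.30% of the windows hold, was in none of the members' windows, and the Itln1 window held none of the 3 patterns. Windows were matched for 6 of the 10 genes (Itln1, Retnla, Retnlg, Fcgbp, Agr2 and Lypd8, the last with 2 of the 7 windows), and not for Retnlb, Zg16, Dmbt1 and Clca1. The Retnla and Retnlg windows are related to each other: in a local alignment 175 of 223 columns were identical (78.5%), with bases 6 to 227 of Retnla set against bases 80 to 300 of Retnlg. The TTCACAAGAA of Retnla and the TTCACAGGAA of Retnlg lie at matching places of this stretch, although their distances from the annotated starts differ. The TATAAA of Retnla is set against the end of the Retnlg window, which holds no TATAAA.

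Retnlb encodes resistin-like beta, a goblet cell protein that kills Gram-negative bacteria and keeps them from the inner mucus. Its cluster (chr16:48816856-48818892, plus strand, 21 probes) had a level of 10.74 in the C3 KO array and 12.02 in the WT array, a difference of -1.28. The C3 KO signal was 41.2% of the WT signal, and the gene was clearly measured in both arrays, since none of 23 background probe sets reached its level. Of the 686 main clusters whose mean level was at least 10, called bright here, it had the 2nd lowest difference. At such levels differences were small: 1.17% of the 686 were at least 1.5-fold lower and 0.875% at least 2-fold lower, and the middle 95% of their differences ran from -0.39 to 0.41. In a bulk sample like these, fewer cells of a type and less RNA per cell cannot be told apart.

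Retnla and Retnlg lie on the same strand beside Retnlb, within 57.6 kb on chromosome 16. Retnla encodes resistin-like alpha, known from alternatively activated macrophages and from airway epithelium and fat. It had a level of 6.20 in the C3 KO array and 5.85 in the WT array (chr16:48842552-48844461, 13 probes), so that the C3 KO array was slightly above and the difference of 0.34 stayed within 1.5-fold. Retnlg encodes resistin-like gamma, known from bone marrow and neutrophils. It had a level of 4.53 in the C3 KO array and 3.91 in the WT array (chr16:48872608-48874498, 15 probes), a difference of 0.62. The WT level lies below the background median of its array, 4.20, so this fold is not exact, and with both arrays floored at background the difference was 0.33 and no longer passed. Of the 23 background probe sets, 11 lay above Retnlg in the C3 KO array and 12 in the WT array, and for Retnla the counts were 8 and 9. The difference of Retnlg is also inside the middle 95% of the clusters with a mean level of 4 to under 5, which ran from -0.73 to 0.69. In this run the bright goblet cell gene was lower and the other genes were not. Whether the 3 neighbours move together cannot be read from this, since a fall of genes near background can be understated. The remaining resistin family gene, Retn, which encodes the fat cell hormone resistin, had 5.53 in the C3 KO array and 5.70 in the WT array, a difference of -0.17.

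Itln1 encodes intelectin, a secreted lectin that binds sugars found on microbes and not on mouse cells, and is known from Paneth and goblet cells. Its cluster (chr1:171518122-171535294, minus strand, 20 probes) had a level of 5.20 in the C3 KO array and 7.22 in the WT array. The difference of -2.01 was the largest of the 10 in size and the 57th lowest of all 33793 main clusters, and the C3 KO signal was 24.8% of the WT signal. The gene is much nearer to background in C3 KO, where 10 of the 23 background probe sets lay above it, than in WT, where 6 did, and both levels exceed the background medians. Of 12306 clusters with a mean level of 5 to under 7, 0.536% were at least 2-fold lower, and the middle 95% of their differences ran from -0.63 to 0.61. Among 32 genes within 300 kb of Itln1, 2 passed 1.5-fold, Alyref2 (5.62 in C3 KO and 6.34 in WT) and Apoa2 (7.55 in C3 KO and 6.89 in WT), both chosen after their values were seen, and the median difference of the 32 was -0.02.

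Dmbt1 encodes a large scavenger receptor glycoprotein of mucosal surfaces that binds bacteria. Its cluster (chr7:131032076-131121628, plus strand, 13 probes) had a level of 9.90 in the C3 KO array and 10.92 in the WT array, a difference of -1.02. The C3 KO signal was 49.3% of the WT signal, and its difference was the 6th lowest of the 686 bright clusters. No background probe set reached the gene in either array. Cuzd1, a zona pellucida domain gene of pancreatic acinar cells that shares CUB and zona pellucida domains with Dmbt1, lies 187 kb away and had 4.53 in the C3 KO array and 9.16 in the WT array, 24.8-fold lower in C3 KO.

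Zg16 and Lypd8 encode the other proteins of the group that keep bacteria off the epithelium, and neither passed 1.5-fold. Zg16, a goblet cell lectin that binds the peptidoglycan of Gram-positive bacteria (chr7:127050156-127051977, minus strand, 20 probes), had a level of 11.90 in the C3 KO array and 12.12 in the WT array, a difference of -0.22. Lypd8, an anchored protein of the colonic surface that binds bacterial flagella (chr11:58379032-58390728, plus strand, 25 probes), had a level of 12.87 in the C3 KO array and 12.71 in the WT array, a difference of 0.15. Zg16 was thus slightly below WT and Lypd8 slightly above, both inside the range of the other bright clusters.

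The 3 genes that build the mucus itself were within 1.5-fold as well, with the C3 KO level of each below its WT level. Fcgbp, a very large protein bound into the mucin network (chr7:28071236-28120864, plus strand, 25 probes), had a level of 12.37 in the C3 KO array and 12.61 in the WT array, a difference of -0.24. Clca1, a secreted metalloprotease that cleaves Muc2 in the mucus (chr3:145004537-145032776, minus strand, 24 probes), had a level of 12.83 in the C3 KO array and 12.96 in the WT array, a difference of -0.13. Agr2, a disulfide isomerase of the endoplasmic reticulum that Muc2 assembly needs (chr12:35992907-36004087, plus strand, 22 probes), had a level of 11.02 in the C3 KO array and 11.40 in the WT array, a difference of -0.38. Agr2 lies at the edge of the middle 95% of bright clusters, and ranked 19th lowest of the 686.

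The small differences of the bright genes leaned to 1 side. Of the 7 bright genes, 6 had a C3 KO level below WT, and their median difference was -0.24. Over all 686 bright clusters, 33.4% were below WT and the median difference was 0.06. The 5 of these genes within 1.5-fold, Zg16, Lypd8, Fcgbp, Clca1 and Agr2, spanned -0.38 to 0.15, with 4 of 5 below WT.

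**Figure D2:**
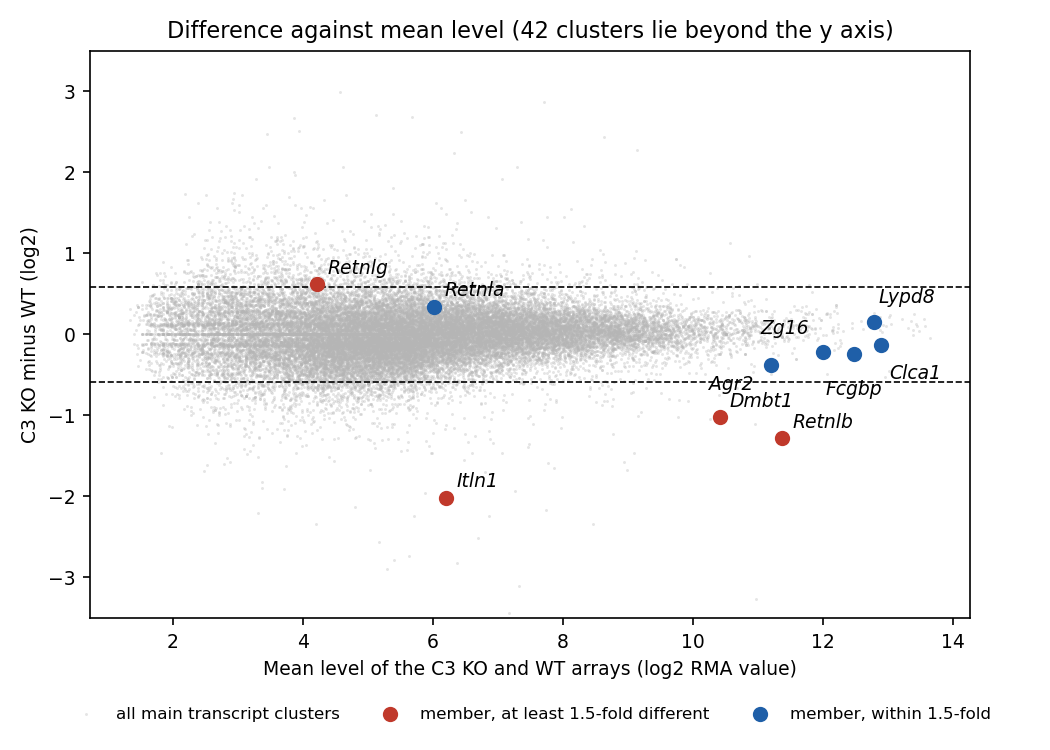
Difference (y axis, C3 KO minus WT, log2) against the mean level of both arrays (x axis, log2 RMA value) for all main clusters (grey) and the 10 genes, red where at least 1.5-fold different and blue where within it; dashed lines mark 1.5-fold, and 42 clusters lie beyond the y axis. Retnlb and Dmbt1 stand below nearly all clusters of their level and Itln1 below most dimmer ones. The other bright genes lie between -0.38 (Agr2) and 0.15 (Lypd8).

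Relatives of the 10 genes on the array were mostly within 1.5-fold. Of 19 paralogs, 1 was higher, 1 was lower, the Cuzd1 named above, and 17 were within it. The Clca genes of calcium-activated chloride channel regulators form a run of 8 genes over 369 kb of chromosome 3, of which 0 were lower, 1 was higher and 6 were below WT, with a median difference of -0.17. Clca3b had 11.47 in the C3 KO array and 11.64 in the WT array. Clca4a had 8.62 in the C3 KO array and 9.07 in the WT array, and Clca3a2 had 8.69 in the C3 KO array and 8.86 in the WT array. The higher gene was Clca4b, with 4.80 in the C3 KO array and 3.68 in the WT array, a difference of 1.11 whose WT level is below background and whose fold is not exact. The dim genes of the run, Clca3a1, Clca4c-ps and Clca2, had differences of -0.44, -0.44 and 0.17. Among relatives elsewhere, Txndc12, an isomerase related to Agr2, had a difference of -0.30, and the 7 other Lypd genes had differences from -0.26 to 0.00. Agr3 (3.19 in C3 KO and 3.04 in WT) and 9530053A07Rik, which resembles Fcgbp (3.83 in C3 KO and 3.68 in WT), were below background in both arrays.

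**Figure D3:**
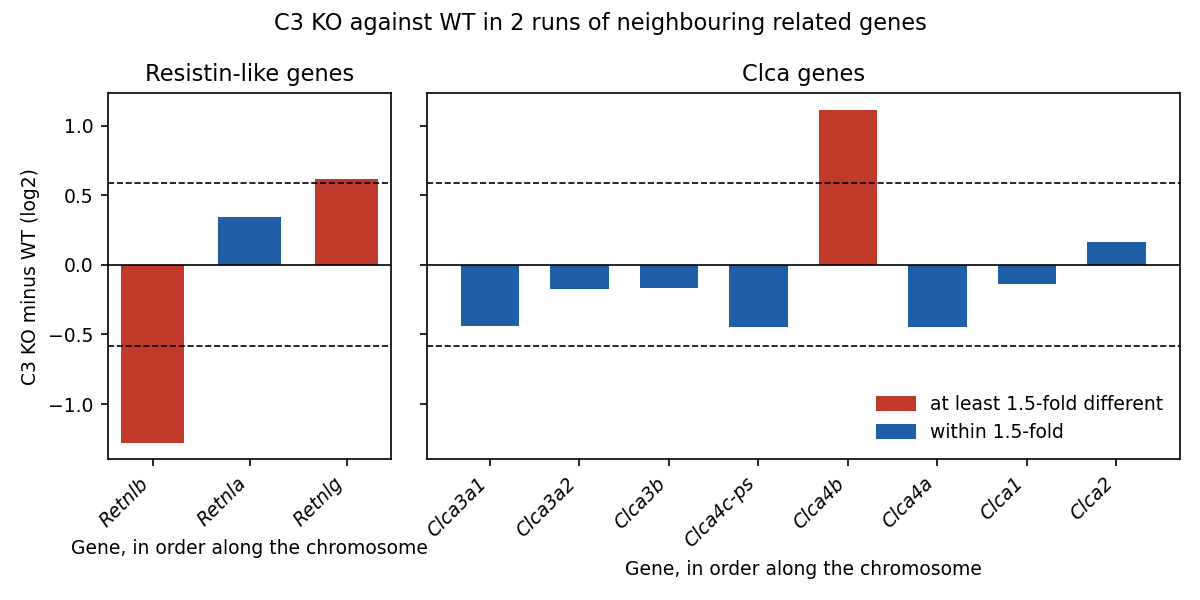
Difference (y axis, C3 KO minus WT, log2) of the resistin-like genes on chromosome 16 (left) and the Clca genes on chromosome 3 (right), in their order along the chromosome; bars start at 0, are red at 1.5-fold or more and blue within it, and come from 1 array per group. Retnlb lies at -1.28 beside Retnla at 0.34 and Retnlg at 0.62, and of the Clca genes Clca4b alone, at 1.11, passes the dashed line.

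Goblet cell genes outside the 10 mostly stayed within 1.5-fold. Of 25 such genes, 1 was higher and 3 were lower, with a median difference of -0.12, and 16 were below WT. Spdef, the transcription factor of goblet cell maturation, had 7.34 in the C3 KO array and 8.02 in the WT array, a difference of -0.68. Sytl4, a granule transport protein, had 6.45 in the C3 KO array and 7.07 in the WT array, 1.53-fold lower in C3 KO, and Galnt12, which starts mucin glycans and was chosen after its value was seen, had 8.29 in the C3 KO array and 8.88 in the WT array, 1.51-fold lower in C3 KO. Reg4, a secreted lectin of the regenerating family, was 1.52-fold higher, with 11.01 in the C3 KO array and 10.41 in the WT array, and with loess centring 0 genes of this list were higher. The defining goblet cell markers were measured well in both arrays and stayed within 1.5-fold apart from Spdef. Muc2, as the mean of 2 clusters, had 12.74 in C3 KO and 13.23 in WT. Its difference of -0.49, a mean over the 2, lay below the middle 95% of the single bright clusters, which ran from -0.39 to 0.41. Whether each of the 2 Muc2 clusters lay below that range is not shown here. Tff3 had 11.54 in C3 KO and 11.39 in WT, and Atoh1 had 9.23 in C3 KO and 9.09 in WT. Of these markers, Muc2, Spdef, Fcgbp, Clca1, Agr2 and Zg16 were below WT, and Tff3 and Atoh1 above. Of 21 partners of secretion in the endoplasmic reticulum, where Agr2 works, 0 were higher and 3 were lower. The lower genes were Ero1lb (3.02-fold), Sdf2l1 (1.91-fold) and Hyou1 (1.66-fold, chosen after its value was seen). Of the 21, 19 were below WT, and the median difference was -0.22. Which cells the differences of these 21 genes come from was not tested.

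Genes of the type 2 response, the arm of immunity known to induce Retnlb, mostly stayed within 1.5-fold too. Of 29 such genes, 1 was higher and 2 were lower, with a median difference of 0.09. Of the 29, 5 were below background in both arrays, and the folds of dim genes can be understated. The cytokines Il13 (5.22 in C3 KO and 5.13 in WT) and Il25 (6.21 in C3 KO and 6.20 in WT), the receptor Il4ra (7.25 in C3 KO and 7.41 in WT) and Stat6 (8.76 in C3 KO and 8.88 in WT) were within 1.5-fold, all chosen after their values were seen. Sprr2a3, a small proline-rich epithelial protein, was 1.95-fold higher, with 11.35 in the C3 KO array and 10.38 in the WT array, and without cross-hybridizing clusters 0 genes of this list were higher. Ang4, an antimicrobial ribonuclease of Paneth and goblet cells, had 5.78 in the C3 KO array and 8.89 in the WT array, 8.63-fold lower in C3 KO. The third gene past the fold, Il9, chosen after its value was seen, is dim, with 3.34 in the C3 KO array, below background, and 4.26 in the WT array. Of 21 galectins and other soluble lectins, 0 were higher and 4 were lower, led by Reg1 (3.84 in C3 KO, below background, and 11.39 in WT), which acinar cells also make, and Reg3d (4.02 in C3 KO and 6.80 in WT). With a minimum mean level of 6, only 1 of these lectins was lower, and at 2-fold 2 were.

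Markers of other cells, most of them known to make some of the 10 genes, were read beside them. For Retnla, 1 of 13 genes of alternatively activated macrophages was higher, Cd209a (5.43 in C3 KO and 4.75 in WT), and 0 were lower. The median difference of the 13 was 0.07. Of their defining markers, Mrc1 (7.70 in C3 KO and 7.18 in WT) and Arg1 (5.56 in C3 KO and 5.67 in WT) were within 1.5-fold. Chil3, also within it, was below background in both arrays (3.45 in C3 KO and 2.90 in WT). Adipocyte genes, also relevant to Retnla, had a median difference of -0.26, with 0 of 13 higher and 2 lower, Lpl (7.50 in C3 KO and 8.10 in WT) and Car3 (8.38 in C3 KO and 8.97 in WT). For Retnlg, 1 of 16 neutrophil genes was higher, Fpr2 (3.95 in C3 KO and 3.25 in WT), and 1 was lower, S100a8 (2.89 in C3 KO and 3.56 in WT). Both lie below background in both arrays and were chosen after their values were seen. For Itln1, 4 of 16 Paneth cell genes were lower and 0 higher, with a median difference of -0.25: Ang4, named above, Nupr1 (1.83-fold), Defa24 (1.57-fold) and Defa17 (1.56-fold, chosen after its value was seen). Without cross-hybridizing clusters 2 were lower. Of the 4 defining Paneth markers, Ang4 and Defa24 were thus lower, and Lyz1 (5.18 in C3 KO and 5.37 in WT) and Mmp7 (5.44 in C3 KO and 5.35 in WT) were within 1.5-fold. Small intestinal enterocytes are not named here as a source of any of the 10 genes. Of 26 of their genes, 6 were lower and 1 was higher, with a median difference of -0.02. Of the 26, 13 were below WT and 12 above. Fabp2 (8.14 in C3 KO and 9.82 in WT) and Isx (7.03 in C3 KO and 8.69 in WT) led the lower genes. The higher gene was Apoa1 (6.36 in C3 KO and 5.59 in WT). Of the other defining enterocyte markers, Lct was 2.19-fold lower. Fabp6 had a difference of 0.00, and Sis, below background in both arrays, 0.05. The part of these cells in the differences of Retnla, Retnlg and Itln1 was not tested.

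The arrays also differed in genes of other tissues and of the sex chromosomes. Of 31 pancreatic acinar genes, 29 were lower in C3 KO, and the median difference of the 31 was -5.62. Their levels ran from 2.22 to 11.83 in C3 KO, with a median of 4.87, and from 4.42 to 13.30 in WT, with a median of 11.19. Dmbt1 is also known from acinar cells in mice and Zg16 from those of rats. The part of pancreatic RNA in the levels of Itln1, Retnlb, Dmbt1 and the listed endoplasmic reticulum genes was not tested. Xist, expressed from the inactive X chromosome, had 3.81 in C3 KO and 10.35 in WT, and the Y-linked genes Eif2s3y, Uty, Kdm5d and Ddx3y had 7.68 to 8.40 in C3 KO and 2.97 to 5.18 in WT, so sex and genotype cannot be told apart. General epithelial genes (0 of 20 higher and 1 lower, median difference 0.09), smooth muscle genes (0 of 10 either way, 0.09) and housekeeping genes (0 of 16 either way, 0.06) were near even. Colonic surface genes had 1 of 19 higher, Ms4a12, and 3 lower, with Car1 at 10.40 in C3 KO and 11.51 in WT and Slc9a3 2.11-fold lower. C3 itself had 6.80 in C3 KO and 8.15 in WT, a 2.54-fold lower level in C3 KO.

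**Figure D4:**
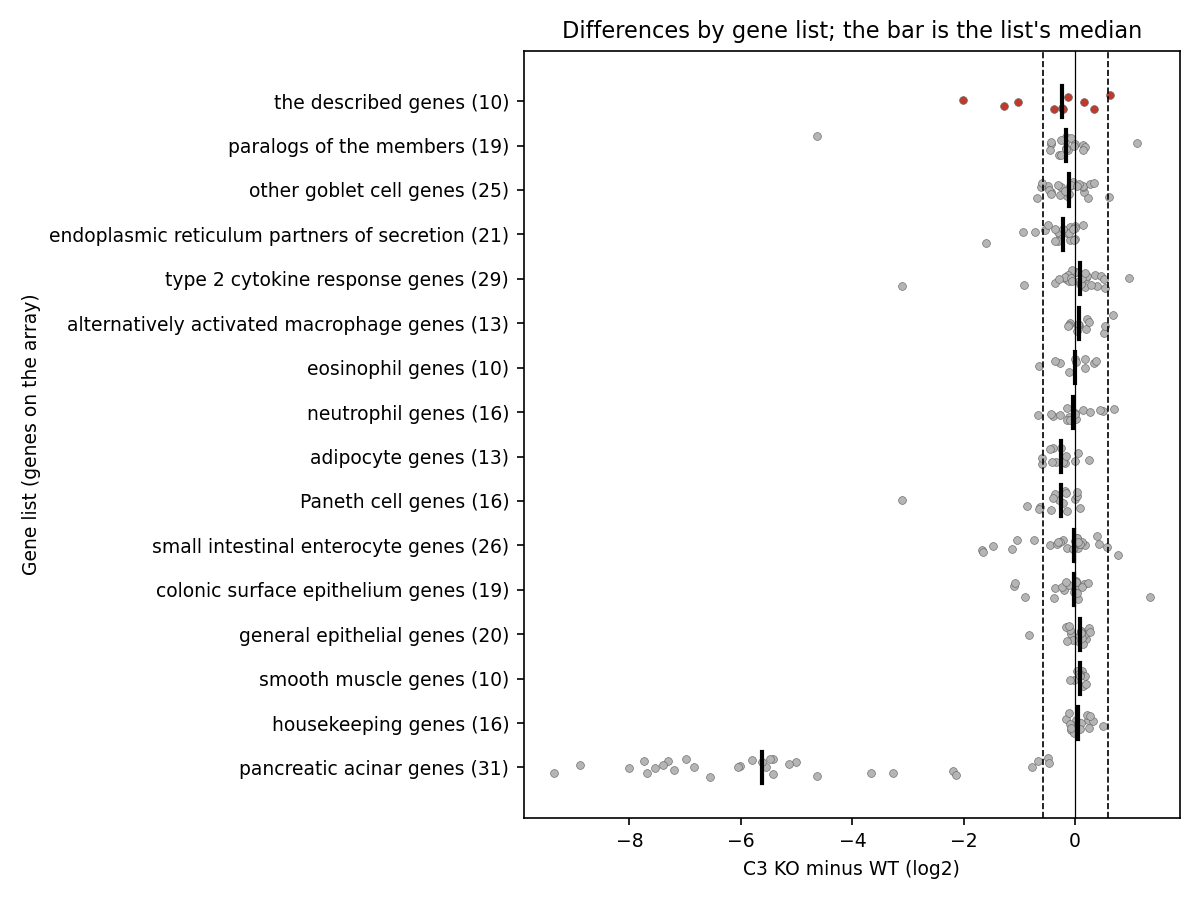
Difference (x axis, C3 KO minus WT, log2) of each gene (points) in the described genes and 15 other lists (rows, with the number of genes on the array); black bars are medians and dashed lines mark 1.5-fold. The medians lie between -0.26 and 0.09 for all lists shown except pancreatic acinar genes, at -5.62.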

How the data were processed

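Total RNA of mid colon tissue was hybridized to Mouse Gene 2.0 ST arrays, 1 for C3 KO and 1 for WT. The sample records give distal colon as the tissue and mid colon in the extraction step. The authors normalized the signals by RMA at the gene level in Affymetrix Power Tools, and the deposited values are on the log2 scale, with background corrected and both arrays given nearly the same distribution. The series table holds the same values for all 41345 probe sets. RMA compresses the folds of dim genes, so that these can be understated.

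The 33793 main clusters were read. Median levels were 5.46 in C3 KO and 5.51 in WT. For background, the median over 23 antigenomic probe sets was taken, 3.99 in C3 KO and 4.20 in WT, and 21.0% of clusters in C3 KO and 23.8% in WT lay below it. A list gene with several clusters takes their mean. The members and gene lists were chosen with earlier results of these data known. Named genes are the 10 members, their listed paralogs, C3 and the sex-linked genes, and, among genes of each other list that pass 1.5-fold and whose mean level reaches 5, the 2 most higher and the 2 most lower; defining cell type markers are given as such. No p-value was computed, and the number of arrays limits the precision. Alternatives were median and loess centring (fraction 0.3), the series table, a minimum of 4 or of 6 for the mean level, the brightest cluster per gene, clusters without cross-hybridization, a floor at background and a 2-fold threshold. Counting was tested on simulated data. Tables of the authors' own folds, KEGG and GO comparisons were not used, and the RT-qPCR and acetate experiments were not analysed here. Coordinates are as deposited, and promoters come from RefSeq GRCm38.p6; their local alignment scored a match 2, a mismatch -3, a gap opening -5 and an extension -2. Python 3.11.15, pandas 2.3.3, numpy 2.4.6, statsmodels 0.14.6, matplotlib 3.10.9 and Biopython 1.88 were used.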

Additional observations from a re-analysis of the deposited data

How the results depend on the processing

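The number of lower genes among the 10 was 3 under each alternative run. The number of higher genes, 1 (Retnlg), was 0 with a minimum mean level of 6, 0 with a floor at background and 0 at 2-fold. The median difference of the 10 genes ran from -0.29 with loess centring to -0.23. Of 79 differences of single genes under the alternatives, 78 kept their side of 1.5-fold and 1 did not, Retnlg with the floor (0.33), and 0 changed direction. Of 322 list counts under the alternatives, 36 moved by more than 1.5 times: for example, the lower Paneth cell genes numbered 2 in place of 4 without cross-hybridizing clusters. No paired analysis was possible because each group has 1 array and the labels give no shared replicate numbers. Signal limits Retnlg, Itln1 and Retnla most, since background probe sets lie above them in both arrays, as they do for none of the other 7 genes.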
